A study of Mus musculus with 6 samples.

Results

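The genes described here are 10 effector genes of mast cells and basophils, chosen by name for their known function, by a rule that uses no measured value, though earlier results of these data were known when they were listed. They are *Ms4a2*, *Fcer1a*, *Fcer1g* and *Lat2* of the IgE receptor and its adaptor, the granule protease genes *Cpa3*, *Gzmb* and *Prss34*, the histamine genes *Hdc* and *Slc18a2*, and the transcription factor gene *Mitf*. The analysed table lists 12101 genes, and 7 of the 10 are among them. *Fcer1a*, *Hdc* and *Prss34* have no row in that table and were not analysed here, so no level is given for them.

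Mast cells and basophils are granulocytes that carry IgE on a high-affinity receptor, and on contact with antigen they release stored histamine, proteases and proteoglycan. The receptor has an alpha chain that binds IgE, a beta chain that amplifies the signal and a pair of gamma chains that relay it, and its signal runs through the kinases Lyn and Syk to membrane adaptors and phospholipase C gamma. In adult bone marrow both cell types are usually traced to myeloid progenitors that share GATA2 with the megakaryocyte and erythroid lineages, and MITF is the factor best known for switching on mast cell granule and receptor genes.

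RNA was sequenced from megakaryocyte–erythroid progenitors (MEPs), sorted from bone marrow by lineage markers, cKit, Sca1, CD34 and CD16/32, of adult CD-1 mice. All mice carried the R26-M2rtTA and Col1a1-tetO-Nanog transgenes, here called *Nanog*-tg. In 3 libraries the mice had received doxycycline (dox) in their drinking water for 5 days, which switches on *Nanog*, and in 3 libraries mice of the same genotype were left untreated. The M2rtTA activator is driven from the broadly active Rosa26 locus, so induction was systemic and not limited to MEPs, and with no dox-treated group lacking the transgene an effect of dox itself and an effect of *Nanog* cannot be told apart. The sources used here give neither the sex nor the age in weeks, and do not say how many animals stand behind each library, so p-values measure only the spread between these libraries.

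The unit is CPM, counts per 1000000 reads of a library's normalized size, and fold changes are differences of log2 CPM with 0.5 reads added. Libraries held between 11264803 and 16153600 reads on listed genes, and 1 read was worth between 0.0642 and 0.091 CPM. *Nanog* was at 1247 ± 218 CPM in dox libraries (SD, n = 3) and 0.584 ± 0.446 CPM in untreated libraries (SD, n = 3). Dox replicate 3 stood apart from the other libraries, at -51.7 on the second principal component (17.3% of the variance) where the others lay between -4.83 and 20.2. On the first component (60.4%) it was at -14.76, between the other dox libraries, at -57.53 and -56.35, and the untreated ones, at 35.11 to 54.23. All 12 erythroid markers listed were in the table, with sums of 4301 to 7410 CPM with dox, the highest in dox replicate 3, and 5802 to 6061 CPM without, as were 9 of 11 megakaryocyte markers. Of 9 markers of mature mast cells or basophils only *Mcpt8* and *Il1rl1* had a row, and the tryptase and chymase genes *Tpsab1*, *Tpsb2*, *Cma1* and *Mcpt4* were not among the genes analysed here.

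Differences were tested with limma over 12088 genes, those that reached 1 CPM in 3 or more libraries, p-values were adjusted by Benjamini–Hochberg, and a gene is called at an adjusted p under 0.05. *Cpa3*, *Ms4a2* and *Slc18a2* were called higher with dox, 3 of the 7 genes, against 4.59% of all genes tested. Because the genes were listed with earlier results known, and the study describes a mast cell program in these libraries, this count is not independent evidence of a direction. None of the 7 was called lower, against 3.18% of all genes tested, although *Gzmb* was called by limma with voom precision weights. At an unadjusted p under 0.05, 5 of the 7 were higher and 1 (*Gzmb*) was lower, against 15.6% and 13.6% of all genes tested. Calls in either direction made up 7.77%. The means of *Lat2*, *Mitf* and *Fcer1g* were also higher with dox and that of *Gzmb* was lower, none past the threshold. The median log2 fold change of the 7 genes was 1.50, and that of all genes tested was -0.03. In 5 of the 7 genes every dox library lay above every untreated library, an arrangement that held for 17.7% of all genes tested. In 1, *Gzmb*, every dox library lay below every untreated library, as for 18.2% of all genes tested. An exact permutation test of 3 libraries against 3 gave p = 0.1 for each of these 6 genes, the smallest it can give, and 0.6 for *Fcer1g*. All 7 genes passed the filter on low values, but *Gzmb* did so only through the untreated libraries, so that the count over the 7 is a description. In bulk RNA, more cells of a type and more RNA per cell cannot be told apart.

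**Figure D1:**
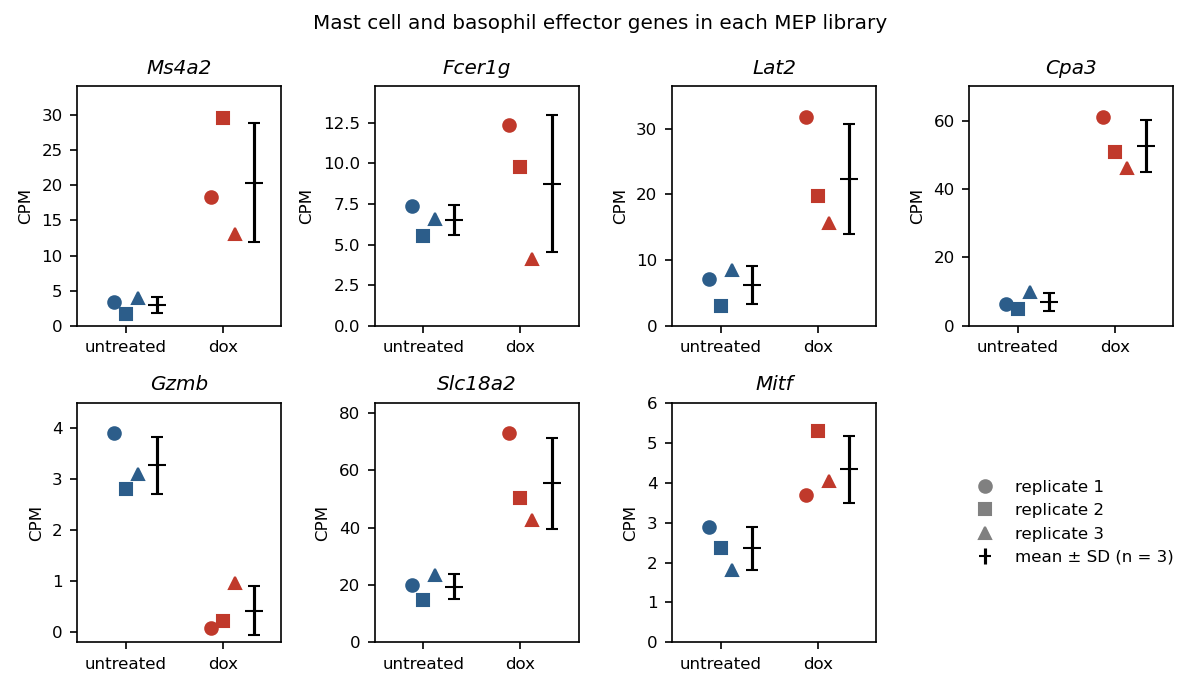
Expression in CPM (vertical axes, linear) of the 7 effector genes in each library, untreated in blue and dox in red, with the replicate number as the symbol and the mean ± SD (n = 3) as the black bar beside each group. *Cpa3* lies between 46.1 and 60.9 CPM with dox and between 4.88 and 10.0 CPM without, *Fcer1g* overlaps between groups, and *Gzmb* lies under 1 CPM in all 3 dox libraries.

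Promoter sequences are shown for the 3 genes called higher and for *Gzmb*, the only gene of the 7 with a lower mean, because GATA factors are known to act on mast cell genes. Each runs from 250 bases before to 50 bases after the RefSeq start site of GRCm38.p6, 5′ to 3′ on the gene's strand, and capitals mark GATA hexamers on either strand, which are the hexamer AGATAA, the hexamer TGATAA, the hexamer AGATAG and the hexamer TGATAG.
Cpa3 promoter, chr3:20242132-20242431, minus strand: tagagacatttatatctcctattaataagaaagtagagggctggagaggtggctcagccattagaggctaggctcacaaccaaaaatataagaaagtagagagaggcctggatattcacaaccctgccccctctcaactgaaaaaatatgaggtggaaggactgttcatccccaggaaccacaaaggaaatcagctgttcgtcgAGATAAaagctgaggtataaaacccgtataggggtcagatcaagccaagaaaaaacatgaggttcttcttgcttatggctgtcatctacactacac
Ms4a2 promoter, chr19:11623670-11623969, minus strand: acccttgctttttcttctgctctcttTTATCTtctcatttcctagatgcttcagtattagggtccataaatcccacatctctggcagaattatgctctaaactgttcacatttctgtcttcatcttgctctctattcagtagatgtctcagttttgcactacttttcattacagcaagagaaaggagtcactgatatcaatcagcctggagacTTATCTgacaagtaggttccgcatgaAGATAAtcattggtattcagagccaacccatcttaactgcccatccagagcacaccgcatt
Slc18a2 promoter, chr19:59260628-59260927, plus strand: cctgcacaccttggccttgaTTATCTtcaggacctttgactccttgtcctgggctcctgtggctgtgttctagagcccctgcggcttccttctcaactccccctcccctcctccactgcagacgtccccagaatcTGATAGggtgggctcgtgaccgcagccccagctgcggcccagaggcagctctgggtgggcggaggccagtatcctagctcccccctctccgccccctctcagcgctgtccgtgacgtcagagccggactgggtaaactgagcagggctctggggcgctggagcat
Gzmb promoter, chr14:56262285-56262584, minus strand: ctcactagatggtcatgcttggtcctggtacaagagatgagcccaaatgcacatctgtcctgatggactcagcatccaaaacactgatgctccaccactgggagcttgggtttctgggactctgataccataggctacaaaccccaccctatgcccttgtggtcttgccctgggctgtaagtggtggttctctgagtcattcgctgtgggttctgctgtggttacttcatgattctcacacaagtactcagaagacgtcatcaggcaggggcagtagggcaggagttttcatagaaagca
The hexamer of *Cpa3* begins 46 bases before its start site. Those of *Ms4a2* begin 224, 37 and 11 bases before it, and those of *Slc18a2* 230 and 115 bases before it. The *Gzmb* window held none, nor did that of *Fcer1g*. RefSeq windows were found for 9 of the 10 genes, with *Lat2* missing, and *Mitf* had 3 start sites with 0, 1 and 2 hexamers. Altogether 8 of the 11 windows held a hexamer, and 29.8% of 32851 windows of the same length over all genes did. A match is a description of the letters and not a binding site.

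Of the IgE receptor chains the beta chain gene passed the test and the gamma chain gene did not, and the difference between the 2 genes was not tested. *Ms4a2*, on chromosome 19 of NCBIM37 from 11690013 to 11698209 on the minus strand, encodes the beta chain, which is found in mast cells and basophils and in few other cells. Its level was 18.3, 29.6 and 13.1 CPM in dox replicates 1, 2 and 3 and 3.34, 1.70 and 3.91 CPM in untreated replicates 1, 2 and 3. All 3 dox libraries were above all 3 untreated ones, with the lowest dox value in replicate 3. The means were 20.4 ± 8.45 CPM in dox libraries (SD, n = 3) and 2.99 ± 1.15 CPM in untreated libraries (SD, n = 3), 6.82-fold apart. This is a log2 fold change of 2.76 (standard error 0.42, limma, adjusted p = 0.022) and only 0.960% of genes tested had a larger one. Without dox replicate 3 the adjusted p was 0.016 (limma, log2 fold change 3.03), and leaving out each of the other libraries put it between 0.054 and 0.077, with log2 fold changes from 2.40 to 2.99.

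*Fcer1g*, on chromosome 1 from 173159703 to 173164496 on the minus strand, encodes the gamma chain, which also serves other Fc receptors and the platelet collagen receptor and is therefore widespread in myeloid cells. It was at 12.4, 9.75 and 4.11 CPM in dox replicates 1 to 3 and at 7.39, 5.54 and 6.55 CPM in untreated replicates 1 to 3. Dox replicates 1 and 2 lay above every untreated library and dox replicate 3 below every one, so the groups overlapped. The means were 8.74 ± 4.22 CPM in dox libraries (SD, n = 3) and 6.49 ± 0.924 CPM in untreated libraries (SD, n = 3). The log2 fold change of 0.29 (limma, adjusted p = 0.66) had a 95% interval from -0.72 to 1.31, and a difference was not detectable at this spread. Without dox replicate 3 the log2 fold change was 0.76 and the adjusted p 0.036 (limma), and without dox replicate 1 the log2 fold change was -0.03. The alpha chain gene *Fcer1a*, on chromosome 1 from 175151402 to 175157360, was one of those not analysed.

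*Lat2*, on chromosome 5 from 135076138 to 135090893 on the minus strand, encodes a membrane adaptor also called NTAL or LAB that is phosphorylated after IgE receptor crosslinking, and it is also expressed in B cells and monocytes. It was among the genes that the study itself displayed as part of a mast cell program in these libraries, so its direction is not independent evidence. Its level was 31.7, 19.8 and 15.6 CPM in dox replicates 1 to 3 and 7.08, 2.96 and 8.55 CPM in untreated replicates 1 to 3. The groups did not overlap, and dox replicate 1 was the highest library. The means with and without dox were 22.4 ± 8.37 CPM (SD, n = 3) and 6.19 ± 2.90 CPM (SD, n = 3), 3.61-fold apart. On the log2 scale this is a fold change of 1.92 (95% interval 0.78 to 3.05) and missed the threshold with an adjusted p of 0.062 (limma). Without dox replicate 3 the adjusted p was 0.042 (limma), and without each of the other libraries it was between 0.105 and 0.176.

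Among granule proteases the mean of *Cpa3* was higher with dox and that of *Gzmb* was lower. *Cpa3*, on chromosome 3 from 20115516 to 20142080 on the minus strand, encodes carboxypeptidase A3, a mast cell granule protease whose transcript appears early in mast cell and basophil progenitors. It had 827, 681 and 719 reads in dox replicates 1 to 3 and 83, 66 and 110 reads in untreated replicates 1 to 3, or 60.9, 50.7 and 46.1 CPM against 6.45, 4.88 and 10.0 CPM. The lowest dox library was thus far above the highest untreated one. The means of 52.6 ± 7.55 CPM in dox libraries (SD, n = 3) and 7.11 ± 2.63 CPM in untreated libraries (SD, n = 3) were 7.39-fold apart. The log2 fold change was 2.93 (95% interval 2.25 to 3.61, limma, adjusted p = 0.0096), and 0.811% of genes tested had a larger one. *Cpa3* stayed under the threshold with each library left out in turn, with log2 fold changes from 2.69 to 3.21, and was the only one of the 7 genes to do so.

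*Gzmb*, on chromosome 14 from 56877693 to 56881097 on the minus strand, encodes granzyme B, best known from cytotoxic T and NK cells and also made by some mast cells and basophils. It was covered by 1, 3 and 15 reads in dox replicates 1 to 3 and by 50, 38 and 34 reads in untreated replicates 1 to 3. Dox replicates 1 and 2 were at or under 3 reads, taken as the floor of detection, while dox replicate 3 was at 0.963 CPM, below the 2.81 CPM of the lowest untreated library. The means were 0.420 ± 0.476 CPM in dox libraries (SD, n = 3) and 3.26 ± 0.560 CPM in untreated libraries (SD, n = 3). Summed reads were 19 with dox and 122 without, a dox to untreated ratio of 0.137 after scaling to library size, with an exact 95% interval from 0.0796 to 0.223 that covers counting error only, since PCR copies are not independent molecules. Its fold change of -3.42 on the log2 scale (95% interval -5.30 to -1.54) missed the threshold with an adjusted p of 0.053 (limma). Without dox replicate 3 it was -4.27 with an adjusted p of 0.00696 (limma), and without any other single library the adjusted p was between 0.107 and 0.168. Granzyme genes are similar in sequence, and how reads shared between copies were divided would affect a gene with so few reads. The third protease gene, *Prss34*, encodes a basophil and mast cell tryptase, on chromosome 17 from 25435339 to 25437106, and was not analysed here.

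Of the amine genes *Slc18a2* could be measured. It lies on chromosome 19 from 59335368 to 59370502 on the plus strand and encodes the vesicular monoamine transporter VMAT2, which loads histamine and serotonin into granules. Its level was 73.0, 50.3 and 42.7 CPM in dox replicates 1 to 3 and 20.1, 14.7 and 23.6 CPM in untreated replicates 1 to 3. Again every dox library was above every untreated one, with dox replicate 3 the lowest of the dox group. The means with and without dox were 55.3 ± 15.8 CPM (SD, n = 3) and 19.4 ± 4.46 CPM (SD, n = 3), 2.85-fold apart. They give a log2 fold change of 1.50 (standard error 0.26, limma, adjusted p = 0.032). Leaving out dox replicate 3 gave an adjusted p of 0.019 (limma, log2 fold change 1.67), and leaving out each of the others put it between 0.076 and 0.104, with log2 fold changes from 1.28 to 1.65. *Hdc*, the histidine decarboxylase gene that makes the histamine this transporter stores, on chromosome 2 from 126419403 to 126445035, was not analysed here.

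*Mitf*, on chromosome 6 from 97757052 to 97971352 on the plus strand, was the lowest of the 7 genes per length without dox. It had 50, 71 and 63 reads in dox replicates 1 to 3 and 37, 32 and 20 reads in untreated replicates 1 to 3, or 3.68, 5.29 and 4.04 CPM against 2.88, 2.36 and 1.82 CPM. The groups did not overlap, though the gap between them was narrower than the spread within the dox group. The means with and without dox, 4.34 ± 0.841 CPM (SD, n = 3) and 2.35 ± 0.529 CPM (SD, n = 3), gave a log2 fold change of 0.88 (95% interval 0.34 to 1.41), which missed the threshold with an adjusted p of 0.065 (limma).

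**Figure D2:**
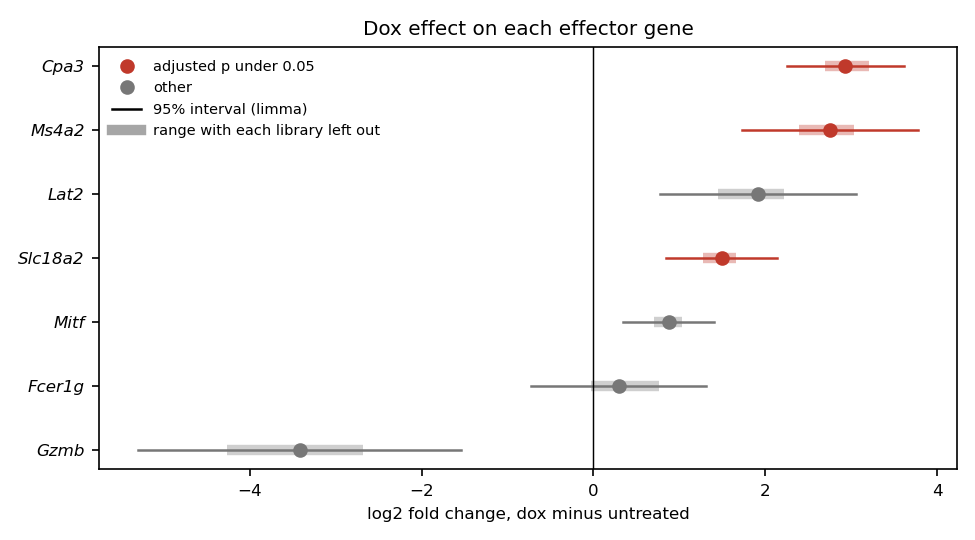
Log2 fold change, dox minus untreated (horizontal axis), of each of the 7 genes, with limma's 95% interval as the thin line and the range over fits that leave out each library in turn as the thick band, red for an adjusted p under 0.05. *Cpa3*, *Ms4a2* and *Slc18a2* are called higher, the interval of *Fcer1g* spans 0, and *Gzmb* at -3.42 has the widest interval, from -5.30 to -1.54.

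Levels of different genes were compared only as CPM per kilobase of annotated exon. Without dox the order was *Fcer1g* at 8.12 ± 1.15, *Slc18a2* at 5.11 ± 1.17, *Cpa3* at 4.90 ± 1.81, *Lat2* at 4.12 ± 1.93, *Gzmb* at 2.30 ± 0.395, *Ms4a2* at 1.08 ± 0.417 and *Mitf* at 0.378 ± 0.0848 CPM per kilobase (SD, n = 3). The levels of *Slc18a2*, *Cpa3* and *Lat2* lay within each other's spread. With dox *Cpa3* came first at 36.2 ± 5.20 CPM per kilobase, followed by *Lat2* at 14.9 ± 5.56, *Slc18a2* at 14.6 ± 4.15, *Fcer1g* at 10.9 ± 5.28, *Ms4a2* at 7.38 ± 3.07, *Mitf* at 0.696 ± 0.135 and *Gzmb* at 0.296 ± 0.336 CPM per kilobase (SD, n = 3). The neighbours from *Lat2* down to *Ms4a2* did not differ beyond their spread.

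The other genes of these pathways were read from 6 lists with 70 genes, of which 57 were in the table and were tested. Their median log2 fold change was 0.31, with 41 higher and 16 lower means, and 4 (7.02%) were called higher and 2 (3.51%) lower. These shares are near those of all genes tested, 4.59% and 3.18%. The 16 genes of IgE receptor signalling were all measured and had a median of 0.46, with 14 higher means and 2 calls. At an unadjusted p under 0.05, 8 of the 16 were higher (*Lyn*, *Lat*, *Btk*, *Plcg1*, *Grb2*, *Itpr1*, *Itpr2* and *Stim1*) and 0 were lower, against 15.6% and 13.6% of all genes tested. *Lyn*, the kinase that first phosphorylates the receptor's beta and gamma chains, was at 86.8, 99.1 and 75.9 CPM in dox replicates 1 to 3 and at 41.6, 29.7 and 34.0 CPM in untreated replicates 1 to 3, with no overlap. Its log2 fold change was 1.32 (limma, adjusted p = 0.016). *Lat*, the adaptor that gathers phospholipase C gamma at the membrane and a relative in function of *Lat2*, was at 23.6, 20.0 and 13.3 CPM with dox and at 5.44, 3.03 and 7.37 CPM without, again with no overlap. Its log2 fold change was 1.89 (limma, adjusted p = 0.041). *Syk*, the kinase recruited by the gamma chain, had a log2 fold change of 0.50 (limma, adjusted p = 0.32), and *Fyn*, of the same kinase family as *Lyn*, one of -0.20 (limma, adjusted p = 0.46).

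Among granule genes 6 of 14 were in the table, and *Ctsg*, the gene of cathepsin G, which mast cells share with neutrophils and monocytes, was called lower. It was at 61.2, 52.9 and 47.4 CPM with dox and at 351, 130 and 202 CPM without, a log2 fold change of -1.97 (limma, adjusted p = 0.035). *Mcpt8*, a basophil granule protease gene, had means of 1.06 ± 0.527 CPM in dox libraries (SD, n = 3) and 1.95 ± 0.686 CPM in untreated libraries (SD, n = 3), and its log2 fold change of -0.93 had an adjusted p of 0.20 (limma). *Srgn*, the core protein of the granule proteoglycan serglycin, had a log2 fold change of 0.55 (limma, adjusted p = 0.17).

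Of 13 receptor genes 11 were in the table, with a median log2 fold change of 0.31. *Il4ra*, the alpha chain of the IL-4 receptor, was called higher at 27.0, 21.1 and 14.0 CPM with dox against 8.79, 5.99 and 6.64 CPM without (log2 fold change 1.50, limma, adjusted p = 0.035). *Kit*, the receptor for stem cell factor on which mast cells depend and also part of the sorting gate, was at 316 ± 9.81 CPM in dox libraries (SD, n = 3) and 419 ± 81.8 CPM in untreated libraries (SD, n = 3) (log2 fold change -0.39, limma, adjusted p = 0.19). The largest log2 fold change in the receptor list, 2.87 with an adjusted p of 0.11 (limma), belonged to *Csf2rb2*, the IL-3-specific beta chain, named here after its values were seen. Its reads were 552, 277 and 46 in dox replicates 1 to 3 and 21, 22 and 25 in untreated replicates 1 to 3. Dox replicate 3 was well below the other dox libraries, and without it the adjusted p was 0.00645 (limma). Reads of *Csf2rb2* are uncertain, because *Csf2rb* is a near-identical copy. At an unadjusted p under 0.05 the receptor list held 2 higher genes, *Il4ra* and *Csf2rb2*, and 2 lower genes. The lower ones were *Ccr2*, a chemokine receptor of monocytes and of mast cell progenitors, at 2.50 to 3.24 CPM with dox and 4.36 to 14.2 CPM without (log2 fold change -1.62, limma, adjusted p = 0.075), and *Cd63*, a granule membrane tetraspanin, whose groups overlapped (-0.90, limma, adjusted p = 0.17).

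None of the 11 lineage transcription factors was called in the reported limma fit, and at an unadjusted p under 0.05 1 (*Gata2*) was higher and 5 (*Gata1*, *Cebpa*, *Cebpb*, *Tfec* and *Zfpm1*) were lower, where 15.6% and 13.6% of all genes tested were. Reads of *Zfpm1* are uncertain, because the annotation places *Gm20388* over it. The median log2 fold change of the 11 was -0.06. *Gata2*, needed for mast cell and basophil progenitors and also displayed by the study with its mast cell genes, was at 286, 236 and 136 CPM with dox and at 79.9, 51.8 and 107 CPM without. The groups did not overlap, and the log2 fold change of 1.46 had an adjusted p of 0.070 (limma), or 0.025 without dox replicate 3, and it passed the threshold in 6 of 16 alternative limma fits. *Cebpa*, whose product opposes mast cell fate, had a log2 fold change of -1.58 (limma, adjusted p = 0.058) and also passed in 6 of 16 alternative fits. The study described *Gata2* as increased and *Cebpa* as downregulated in these libraries. Both had the same direction here, but neither was called in the reported limma fit.

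Leukotriene and exocytosis genes held 1 call each. *Alox5*, the 5-lipoxygenase gene, was at 1.91, 2.53 and 2.63 CPM with dox and at 6.84, 4.73 and 7.37 CPM without, a log2 fold change of -1.40 (limma, adjusted p = 0.023). *Ltc4s*, which carries the same pathway on to the cysteinyl leukotriene that mast cells release, had 35, 27 and 23 reads with dox and 3, 7 and 11 reads without, and its log2 fold change of 1.89 had an adjusted p of 0.075 (limma). Untreated replicate 1 was at the floor of 3 reads, and *Ltc4s* passed the filter on low values only through the dox libraries. It was called in 1 of 15 alternative fits. *Rab27b*, a small GTPase that docks secretory granules at the membrane, was called higher at 16.5, 16.9 and 12.7 CPM with dox against 7.93, 5.47 and 6.91 CPM without (log2 fold change 1.18, limma, adjusted p = 0.024). Without dox replicate 3 the 4 higher and 2 lower calls stayed under the threshold in the same direction, and the pathway counts became 19 higher and 4 lower. Without dox replicates 1 or 2, or untreated replicate 3, no pathway gene was called higher or lower.

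**Figure D3:**
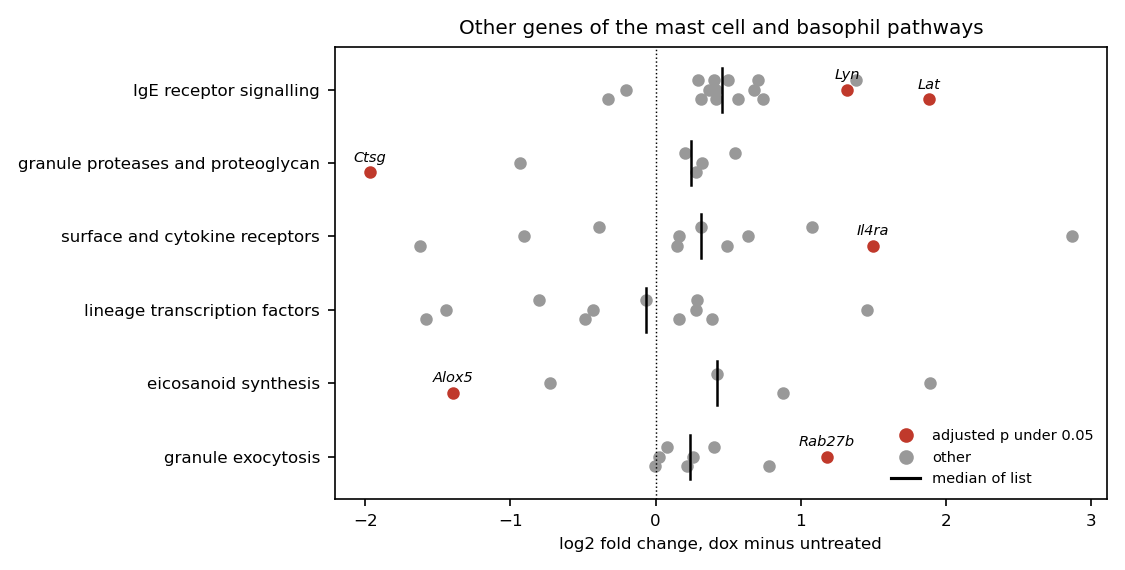
Log2 fold change, dox minus untreated (horizontal axis), of the 57 other pathway genes in 6 lists (rows), each point a gene, red and named for an adjusted p under 0.05, with the median of each list as a black bar. The medians lie between -0.06 for the transcription factors and 0.46 for IgE receptor signalling, and the called genes are 4 to the right and 2 to the left of 0.

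Markers of other cell types moved with dox in the same libraries, and the counts of calls are to be read against the 4.59% of all genes tested that were called higher and the 3.18% called lower. All 12 granulocyte-monocyte markers had lower means, 8 of them called (*Mpo*, *Elane*, *Prtn3*, *Ctsg*, *Ms4a3*, *Cebpe*, *Csf1r* and *Irf8*), and their sums were 519 to 787 CPM with dox and 2324 to 5347 CPM without. The 8 were called in 10 to 15 of 16 alternatives each. *Ctsg* is one of the 12, and without it the sums were 471 to 726 CPM with dox and 2194 to 4996 CPM without. These lower sums went with the lower levels of *Gzmb* and *Alox5*, and their part in them was not tested. Of 12 NK and cytotoxic T markers only *Gzmb* and *Nkg7* were in the table, and *Nkg7* was called lower, while the defining genes *Ncr1*, *Cd3e* and *Prf1* had no row. Of 8 eosinophil markers 3 were in the table, and *Epx* and *Prg2* were called lower, with sums of 7.52 to 11.4 CPM with dox and 16.5 to 26.0 CPM without. Most of each dox sum was the other measured marker, *Siglecf*, at 5.43 to 7.66 CPM with dox and 3.77 to 8.01 CPM without. Its groups overlapped, with a log2 fold change of 0.16 (limma, adjusted p = 0.75). The megakaryocyte markers had sums of 189 to 484 CPM with dox and 129 to 165 CPM without, with *Gp9* and *Gp1ba* called higher and *Vwf* lower, 2 and 1 of 9. *Vwf* was called in 12 of 16 alternatives, *Gp9* in 10 and *Gp1ba* in 8, and without each library other than dox replicate 3 the adjusted p of *Gp1ba* was between 0.113 and 0.159 (limma). Most of the gap between these sums was *Itga2b*, at 66.9 to 319.0 CPM with dox and 24.1 to 39.2 CPM without (limma, adjusted p = 0.069), and without it the sums were 122 to 165 CPM with dox and 105 to 126 CPM without, which overlap. At an unadjusted p under 0.05, 5 of the 9 were higher (*Itga2b*, *Itgb3*, *Gp9*, *Gp1ba* and *Gp5*). Another 2 were lower (*Vwf* and *Pf4*), against 15.6% and 13.6% of all genes tested. Without dox replicate 3, *Itga2b*, *Itgb3*, *Gp9* and *Gp1ba* were called higher and *Vwf* lower (limma, adjusted p from 0.0051 to 0.026). The part of these genes in the levels of *Cpa3*, *Ms4a2* and *Slc18a2* was not tested. The 12 erythroid markers went both ways, with 6 higher and 6 lower means and a median log2 fold change of -0.14. Of these *Ermap* was called lower, and at an unadjusted p under 0.05 there were 3 higher (*Hbb-b1*, *Alas2* and *Aqp1*) and 3 lower (*Ermap*, *Epor* and *Klf1*), against 15.6% and 13.6% of all genes tested. *Ermap* was called in 10 of 16 alternatives. The sums of the 12 were 4485 and 4301 CPM in dox replicates 1 and 2, below every untreated library, and 7410 CPM in dox replicate 3. Most of each sum was *Car1* and *Aqp1*, with log2 fold changes of -0.33 and 0.50 (limma, adjusted p = 0.58 and 0.089). *Car1* was at 1280 to 3359 CPM with dox and 2034 to 2506 CPM without, so the sums describe mainly these genes. Without dox replicate 3, *Ermap*, *Klf1*, *Epor*, *Tfrc* and *Car1* were called lower (limma, adjusted p from 0.010 to 0.026). None of the 6 measured markers of B cells and plasmacytoid dendritic cells was called in the reported limma fit, with 1, *Tcf4*, higher at an unadjusted p under 0.05 and called in 6 of 16 alternatives. Of the measured markers of mature mast cells or basophils *Il1rl1* made up nearly all of the sum, at 109.8 ± 10.7 CPM in dox libraries (SD, n = 3) and 88.6 ± 9.52 CPM in untreated libraries (SD, n = 3), so the sum describes that gene. Its log2 fold change of 0.31 (limma, adjusted p = 0.19) was opposite in sign to that of *Mcpt8*, and both genes overlapped between the groups.

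**Figure D4:**
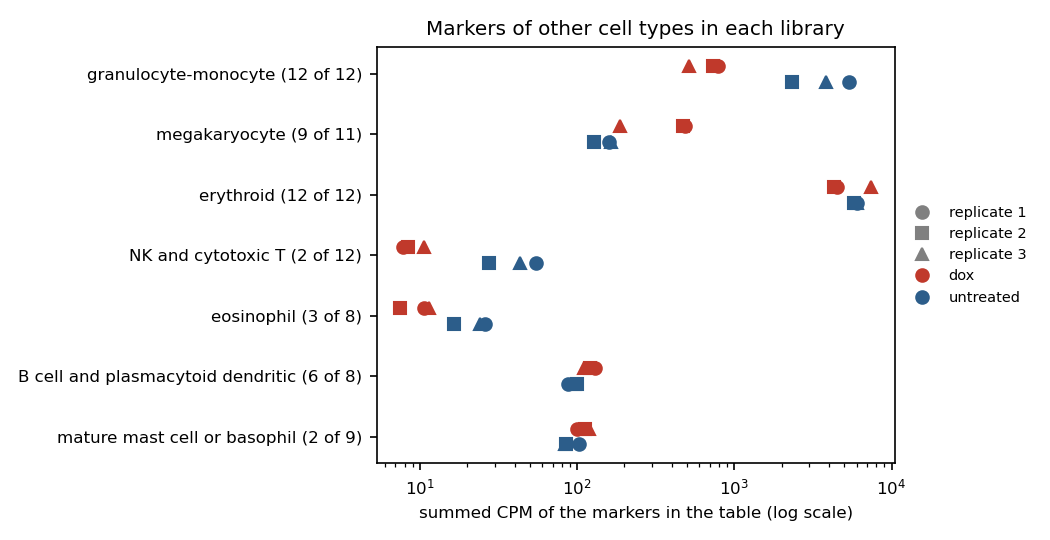
Summed CPM of the measured markers of each cell type (horizontal axis, log scale) in each library, dox in red and untreated in blue, with the replicate number as the symbol and the number of measured of listed markers beside each name. Granulocyte-monocyte sums are 519 to 787 CPM with dox and 2324 to 5347 CPM without, megakaryocyte sums are mostly *Itga2b* in dox replicates 1 and 2, and sums of mature mast cell or basophil markers, nearly all *Il1rl1*, overlap.

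Genes near the 7 on the chromosome were examined within 200 kb, a window chosen after the values were seen. Of 34 tested neighbours 6 were called, against 7.77% of all genes tested. *Ms4a3*, a granulocyte-monocyte gene of the same family 5777 bases from *Ms4a2*, was called lower (log2 fold change -2.48, limma, adjusted p = 0.018), and *Ms4a6b*, another family member 84.3 kb from *Ms4a2*, was called higher (2.53, limma, adjusted p = 0.023). Neighbouring genes of this cluster thus differed in opposite directions. Near *Gzmb* lie *Ctsg* and *Mcpt8*, 156 kb and 174 kb away, and both had lower means with dox. The other calls were *Arhgap30* near *Fcer1g*, *Clip2* near *Lat2* and *Rnf17* near *Gzmb*. None of the 4 tested neighbours of *Cpa3* and *Slc18a2* was called in the reported limma fit, and 0 had an unadjusted p under 0.05.

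The patterns closest to *Cpa3* over the 6 libraries, by the mean absolute difference of log2 values centred on each gene's mean among 9986 genes of at least 5 CPM, were those of *Parm1*, *Nrgn* and *Calcrl*, with differences of 0.20, 0.20 and 0.25 on the log2 scale. *Nrgn*, which encodes the calmodulin-binding protein neurogranin, had 1470, 1427 and 1196 reads in dox replicates 1 to 3 and 221, 144 and 193 in untreated replicates 1 to 3. For *Gzmb* the closest were *Gpc4*, *Gja1* and *Spon2*, with differences of 0.41, 0.43 and 0.44. *Gpc4*, a glypican gene, had 26, 41 and 106 reads with dox and 412, 503 and 311 without, so that it shared with *Gzmb* a dox replicate 3 above the other dox libraries. The likeness is a description over libraries that share the 2 groups.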

How the data were processed

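RNA was sequenced from 3 dox-treated and 3 untreated MEP libraries. Per the study's methods the authors trimmed adapters with Cutadapt, assigned reads to NCBIM37 Ensembl transcripts by RSEM and used limma for normalization. The deposited values are log2 CPM after 0.5 reads were added, scaled by normalized library size, for each replicate and 12101 genes. The use of strand and the filter on low genes are not given in the sources used here, and among the listed genes 12098 exceed 1 CPM in at least 2 libraries. Whole reads could be recovered from the values to within 6.6e-09 reads and gave CPM without the added reads, depth and the counting interval.

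The functions lmFit and eBayes of limma 3.58.1 were run in R 4.3.3 on the log2 values of genes reaching 1 CPM in 3 or more libraries, two-sided. The same fit was run on simulated counts with 1 fixed spread and no library standing apart. That run therefore does not measure its error rate in these data. The added reads understate the fold change of low genes. Single genes had two-sided exact permutation tests. Gene positions and exon lengths came from the NCBIM37 annotation, which named 12067 genes, and promoters from RefSeq. No protein sequence was used here. Replicate numbers were not taken as pairs.

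The members and lists were chosen with earlier results of these data known. Named genes were all members in the table, every called gene of a pathway or marker list (up to 8 per direction and list), *Gata2*, *Kit* and *Nanog*, and the 3 genes most like *Cpa3* and *Gzmb*. Genes named besides these (*Syk*, *Fyn*, *Mcpt8*, *Il1rl1*, *Srgn*, *Itga2b*, *Siglecf*, *Tcf4*, *Ccr2*, *Cd63*, erythroid, megakaryocyte and IgE signalling genes and factors not called, *Csf2rb2*, *Cebpa*, *Ltc4s*, *Ms4a6b* and the other neighbours) were chosen after their values were seen. Alternatives changed the block, variance model, weights, scaling, pseudocount, filter and libraries. Python 3.11.15 with pandas 2.3.3, numpy 2.4.6 and matplotlib 3.10.9 made the tables and figures.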

Additional observations from a re-analysis of the deposited data

How the results depend on the processing

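Under the replicate block, a fit with replicate number as a blocking term, 0 of the 7 members were called higher in place of 3, 0 pathway genes higher in place of 4 and 0 lower in place of 2, and 82 genes in all in place of 939. The adjusted p of *Cpa3* was then 0.052 (limma). Same-numbered libraries deviated from their group means with correlations of 0.0184, -0.121 and -0.299 across genes, so the numbers were not taken to pair them. The block with voom precision weights called 4 members higher, 7 pathway genes higher and 4 lower. A mean-variance trend called 1 member lower, 10 pathway genes higher and 6 lower, and 1656 genes in all. Array quality weights called 6 members higher and 1 lower, 25 pathway genes higher and 10 lower, and 5116 genes in all. Voom precision weights called 1 member lower, 8 pathway genes higher and 4 lower. Quantile normalization called 7 pathway genes lower, and 2 reads added before the log called 1 member lower. A filter of 5 CPM, which left *Gzmb* and *Mitf* untested, called 7 pathway genes higher and 4 lower. The member called lower in these fits was *Gzmb*. *Cpa3*, *Ms4a2* and *Slc18a2* were called under 9 of the 10 alternatives that kept every library, the exception being the block without weights.

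When single libraries were left out the members called higher ranged from 1 to 5 and those called lower from 0 to 1, the pathway genes called higher from 0 to 19 and lower from 0 to 4, and all genes called from 135 to 3488. The highest counts were those without dox replicate 3, and without any other single library *Cpa3* was the only member called. The log2 fold change of *Fcer1g* turned to -0.0278 without dox replicate 1, within a range up to 0.764. Over all alternatives, the fits of single members kept their direction and side of the threshold 82 times, passed it where the reported fit did not 14 times, failed it where the reported fit passed 13 times and turned direction 1 time. The causes were not tested. Scaling by the plain sum of reads moved the median log2 fold change of all genes from -0.03 to 0.08 and the share of calls that were higher from 59.1% to 68.8%, with array quality weights at 49.2%, and the same 3 members were called under the plain sum. Depth limits *Gzmb*, with 1 and 3 reads in dox replicates 1 and 2, and *Mitf*, with at most 71 reads in a library.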
